A study of Mus musculus with 12 samples.

Results

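The genes described here are 39 mouse genes of the interferon response and of antigen presentation, read in the liver of db/db mice that had ingested molecular hydrogen. They were chosen by name, with earlier results of these data known, and matched to the array through the RefSeq record of each probe. A gene with several probes was read from the probe of highest mean signal. Of the 39 genes, 38 had a probe, out of 20283 genes named on the array, 36 could be tested in at least 1 group of mice, and 35 in all 4 groups. Mx1 matched no probe. Ciita, the master regulator of MHC class II genes, was not well above background in either channel on any array. Ifit2 was well above background in both channels on 4 of 12 arrays and was not tested.

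All mice were male, 8 weeks old and of the db/db strain, which lacks a functional leptin receptor and becomes obese and diabetic. In 3 groups MgH2, which releases H2 on contact with water, was given by gavage once a day for 1, 3 or 7 days. The labelled dose was 0.9 mg/kg, which a figure legend of the study also gives for db/db mice over these days. The study's methods give higher doses and name Mg(OH)2 as the control. In the fourth group H2-water, labelled as saturated at 0.8 mM, was the drinking water for 14 days, and the control was the same water after degassing. Each group has 3 two-colour arrays, and each array compared liver RNA pooled from 3 treated mice, labelled with Cy5, with that pooled from 3 controls, labelled with Cy3. The methods state the pooling and both dyes for the H2-water arrays, and the labels give the same dyes for the MgH2 arrays. Values are given in the order of replicates 1 to 3. A value below is the log2 ratio of treated over control unless stated otherwise, so -1 means that the treated signal was lower by 1 unit on the log2 scale.

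Interferons bind receptors that act through JAK kinases and STAT and IRF transcription factors, which switch on the interferon-stimulated genes. Type I interferons act mainly through the ISRE element, which IRF proteins bind, and interferon gamma mainly through the GAS element. In liver, hepatocytes, Kupffer cells and endothelial cells all respond, and the targets include RNA-sensing antiviral proteins, GTPases that attack intracellular microbes, the immunoproteasome that cuts proteins into peptides, and the MHC molecules that show those peptides to T cells.

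Promoter stretches of several of these genes are shown first, since they hold the elements through which interferon is known to act. RefSeq promoter sequences (GRCm38.p6, 250 bases before to 50 bases after the start) were found for 31 of the 39 genes. The core of the ISRE, searched as GAAA, any NN and GAAA without a gap on both strands with overlapping matches allowed, was in 13 of 31 (41.9%), against 3.993% of 27025 mouse genes with such an entry. The core of the GAS, searched as TTCNNNGAA, which reads the same on both strands, was in 7 of 31 (22.6%), against 9.554%. The GAS match of Bst2 overlaps the first bases of its ISRE match. In the stretches below, written 5′ to 3′ on the strand of the gene, capitals mark the ISRE core or, where it stands on the other strand, its reverse complement. Ifit1, Ifit3, Isg15, Oas1a, Irgm1 and Igtp were lower after MgH2, and Gbp2 and Rsad2 hold the same core but did not pass the test. The last stretch lies between the divergent starts of Psmb9 and Tap1, written in the direction of Tap1, and holds neither core.
Ifit1, chr19:34640760-34640838, plus strand: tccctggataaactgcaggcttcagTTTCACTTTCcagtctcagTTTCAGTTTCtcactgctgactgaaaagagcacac
Ifit3, chr19:34583348-34583441, plus strand: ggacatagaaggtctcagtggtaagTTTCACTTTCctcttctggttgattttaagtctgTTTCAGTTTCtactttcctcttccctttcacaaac
Isg15, chr4:156200850-156200921, minus strand: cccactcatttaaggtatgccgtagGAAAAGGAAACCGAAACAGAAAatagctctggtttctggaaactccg
Oas1a, chr5:120907526-120907570, minus strand: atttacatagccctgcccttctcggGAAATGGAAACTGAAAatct
Irgm1, chr11:48871421-48871475, minus strand: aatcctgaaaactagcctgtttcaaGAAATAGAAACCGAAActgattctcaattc
Igtp, chr11:58199497-58199555, plus strand: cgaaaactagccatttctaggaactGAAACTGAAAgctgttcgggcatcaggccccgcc
Gbp2, chr3:142620579-142620638, plus strand: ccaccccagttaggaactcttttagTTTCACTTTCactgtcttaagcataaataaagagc
Rsad2, chr12:26456538-26456597, minus strand: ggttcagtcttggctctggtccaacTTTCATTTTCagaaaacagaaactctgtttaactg
Tap1 and Psmb9, chr17:34187331-34187555, plus strand: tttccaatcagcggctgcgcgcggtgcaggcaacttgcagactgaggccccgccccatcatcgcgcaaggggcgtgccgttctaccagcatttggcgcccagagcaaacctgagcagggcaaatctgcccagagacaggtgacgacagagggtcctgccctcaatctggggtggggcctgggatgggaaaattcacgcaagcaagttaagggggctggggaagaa

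In Isg15 3 overlapping matches form 1 run, and in Ifit1 and Ifit3 a pair of separate matches stand on the strand opposite the gene. At 7 days of MgH2 the median log2 ratio was -0.58 over the 13 tested genes with an ISRE core and -0.45 over the 17 tested genes without one, and 11 of 13 and 13 of 17 passed the test as lower. At 3 days the medians were -0.46 and -0.40, and 8 of 13 and 11 of 16 passed. Of all probes tested, 14.3% passed as lower at 7 days and 11.1% at 3 days. The GAS core divided the genes otherwise at 7 days, with a median of -0.44 for 6 genes with it and -0.48 for 24 without it. These are descriptions of letters in a short window, and genes with and without a match were called lower.

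The arrays were alike in quality. Between 51.8% and 56.5% of spots were well above background in both channels, no spot was saturated, and the median log2 ratio of the 18410 probes read on all arrays lay between -0.0045 and 0.0099. All 6 hepatocyte markers were well above background on every array, and the 6 pancreatic acinar markers on 2 arrays at most. The arrays lie on 4 slides, of which the first holds the 3 arrays of 1 day and 1 of 3 days, the second 2 of 3 days and 2 of 7 days, the third replicate 3 of 7 days alone, and the fourth the 14-day arrays, which were also read with another version of the scanner software. Slide and treatment therefore cannot be told apart for the 14-day group. Each group mean rests on 3 arrays, which limits its precision, and the p-values measure the spread between pools, not between mice.

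Most of the tested interferon and antigen presentation genes were called lower in treated than in control liver after 3 and 7 days of MgH2. At 3 days 22 of 35 tested genes were called lower and none higher, where 11.1% of all 19426 probes tested were called lower and 12.3% higher. At 7 days 28 of 36 were called lower and none higher, where 14.3% of 19468 probes were lower and 15.3% higher. A gene was called when the adjusted p of limma's moderated test was under 0.05 after Benjamini-Hochberg adjustment over all probes tested. At 1 day limma called 0 of 36, where 4.24% of probes were called lower and 5.15% higher. At an unadjusted p under 0.05 there were 9 of 36, beside 5142 of all 19669 probes. Of the 36 genes 31 were below 0, with a median of -0.11. The methods' t-test at 1 day gave 7 before and 0 after Benjamini-Hochberg adjustment. For that test the share of all probes before adjustment is not given here. At 14 days 1 of 36 was called lower, Tap2, a subunit of the peptide transporter, at -0.22 ± 0.055 (SE, adjusted p = 0.041), where 3.91% of probes were called lower and 4.92% higher. Without any 1 of the 3 arrays of that group no gene was called at 14 days. In those fits 0.623% to 0.908% of probes were called lower and 1.51% to 1.87% higher.

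**Figure D1:**
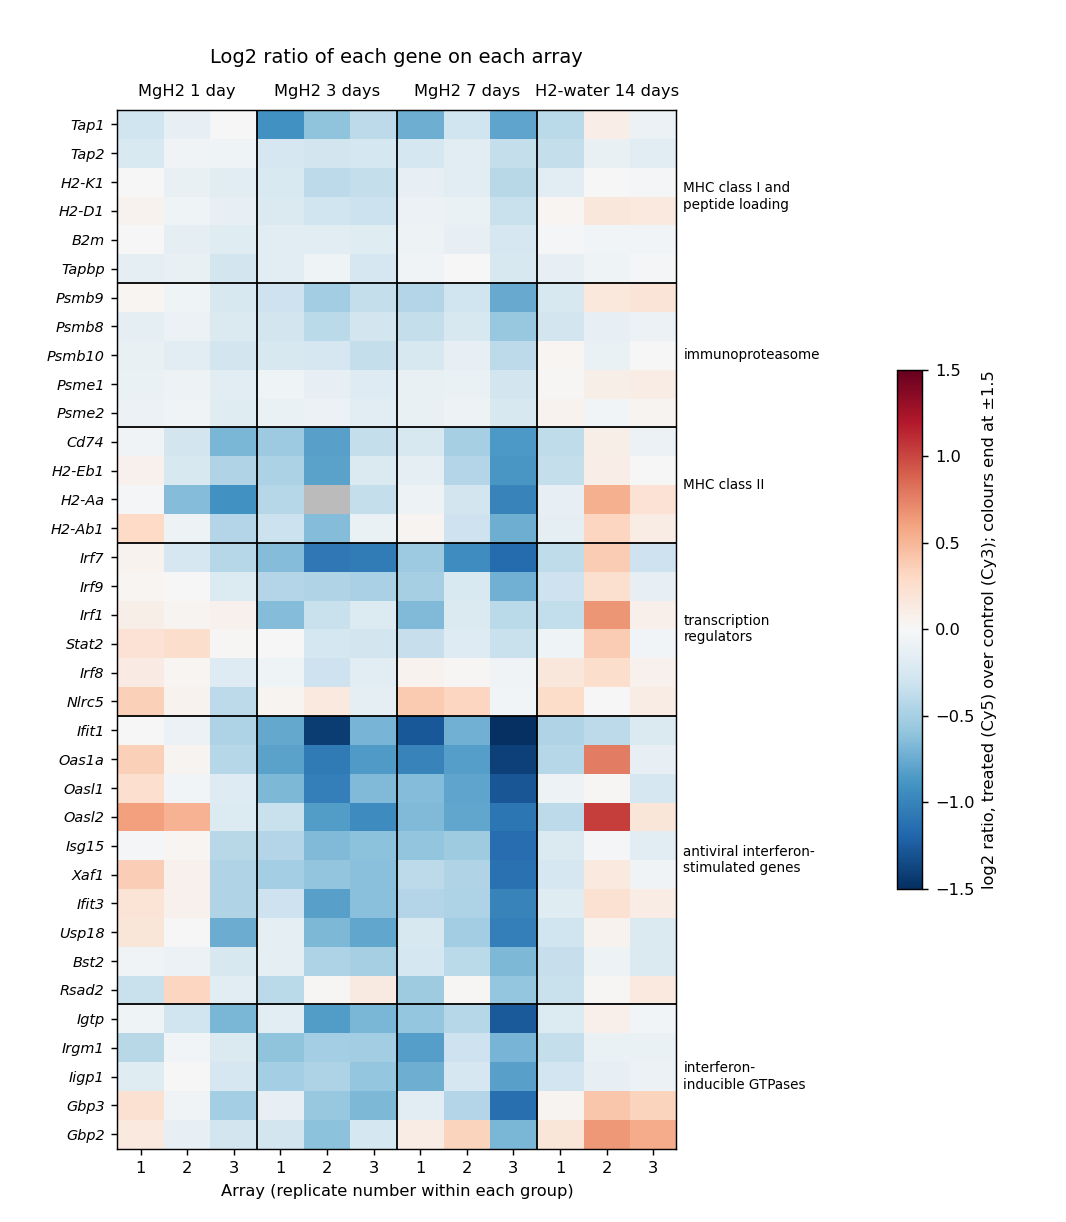
Log2 ratio of treated over control for the 36 tested genes (rows, by role) on the 12 arrays (columns, replicates 1 to 3 of each group); blue is lower in treated liver, red higher, and grey not above background. The 3- and 7-day columns are blue in most rows, most of all replicate 3 of 7 days. Of the 35 genes read on all arrays, 31, 30 and 35 were below 0 on replicates 1 to 3 of 7 days. At 1 day 15, 23 and 32 were, so its replicate 3 is blue in most rows too, and at 14 days 27, 12 and 20.

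The median over the 35 genes read on all arrays was 0.032, -0.058 and -0.24 on replicates 1 to 3 at 1 day, -0.31, -0.51 and -0.36 at 3 days, -0.35, -0.29 and -0.72 at 7 days, and -0.24, 0.083 and -0.042 at 14 days. Every 3- and 7-day array thus lay below every 1-day and 14-day array, where the median of all probes stayed within 0.01 of 0. The number of genes below 0 on all 3 arrays of a group was 12 at 1 day, 33 at 3 days, 30 at 7 days and 9 at 14 days, where 22.4%, 26.3%, 27.9% and 27.7% of all probes were. These are whole livers, in which fewer cells of a type and less RNA per cell cannot be told apart.

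**Figure D2:**
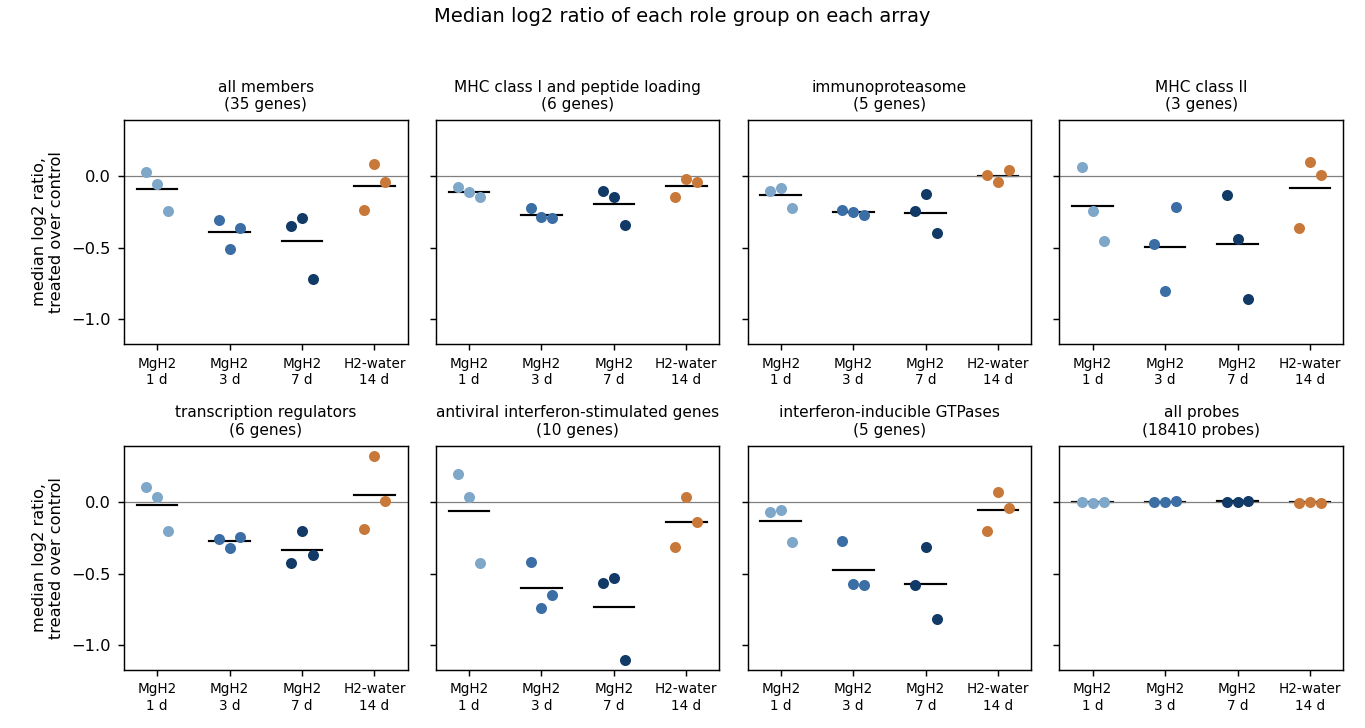
Median log2 ratio of each role group on each array (points; the line is the mean of the 3 arrays), with all 18410 probes in the last panel. The antiviral genes lie between -0.42 and -1.10 on the 3- and 7-day arrays, while the all-probe medians stay at 0.

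The size of both counts, and of the calls over all probes, depended on the estimate of the spread and on single arrays. Fitted on the 3 arrays of a group alone, 7 genes were called at 3 days and 9 at 7 days. In that fit 0.551% of all probes were called lower and 0.952% higher at 3 days, and 5.17% and 6.02% at 7 days. The methods' t-test with Benjamini-Hochberg adjustment called 1 and 0 (20 and 22 before adjustment). After adjustment it called 0.0566% of probes lower and 0.113% higher at 3 days, and 0.0514% and 0.036% at 7 days. Without replicate 2 of 3 days 10 were called, without its replicate 3 13, and without replicate 3 of 7 days 10. In these fits 4.32%, 6.13% and 7.79% of probes were called lower, and 6.14%, 6.88% and 7.97% higher.

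The antiviral interferon-stimulated genes had the lowest medians over the group means, with 7 of 10 tested genes called lower at 3 days (median -0.58) and 9 of 10 at 7 days (median -0.71). Ifit1 had log2 ratios of 0.011, -0.085 and -0.46 at 1 day, -0.76, -1.43 and -0.70 at 3 days, -1.27, -0.73 and -1.58 at 7 days and -0.45, -0.39 and -0.22 at 14 days. Ifit1 binds foreign RNA ends and blocks their translation. All 6 of its 3- and 7-day arrays lay below all 1-day arrays, and its mean was 1.95-fold lower at 3 days (-0.96 ± 0.17, SE, adjusted p = 0.0041) and 2.29-fold lower at 7 days (-1.19 ± 0.17, adjusted p = 0.00094). The probe is dim, and with normexp background correction its 7-day value shrank to -0.34, still called. Oas1a had log2 ratios of 0.36, 0.046 and -0.43 at 1 day, -0.80, -1.07 and -0.85 at 3 days, -1.01, -0.83 and -1.40 at 7 days and -0.43, 0.77 and -0.12 at 14 days. Oas1a, which makes the oligoadenylates that activate RNase L, was below every 1-day array on all 3- and 7-day arrays, at -0.91 ± 0.21 (adjusted p = 0.013) and -1.08 ± 0.21 (adjusted p = 0.0042). A second Oas1a probe gave -0.69 and -0.64. Oasl1 had log2 ratios of 0.25, -0.045 and -0.19 at 1 day, -0.67, -1.03 and -0.66 at 3 days, -0.65, -0.79 and -1.28 at 7 days and -0.076, 0.015 and -0.25 at 14 days. Oasl1, an OAS-like protein without synthetase activity, had the lowest adjusted p of the list at 7 days, with -0.91 ± 0.12 (adjusted p = 0.00079), after -0.79 ± 0.12 at 3 days (adjusted p = 0.0024).

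Oasl2 had log2 ratios of 0.61, 0.52 and -0.21 at 1 day, -0.34, -0.84 and -0.94 at 3 days, -0.66, -0.77 and -1.08 at 7 days and -0.39, 1.04 and 0.18 at 14 days. Oasl2 was the most uneven of these genes, high on replicates 1 and 2 of 1 day and on replicate 2 of 14 days, and it was called at 7 days (-0.84 ± 0.24, adjusted p = 0.026) but not at 3 days (-0.71 ± 0.24, adjusted p = 0.059). With normexp background correction its 7-day value was -0.32 and no longer called (adjusted p = 0.068). Isg15 had log2 ratios of -0.014, 0.030 and -0.42 at 1 day, -0.44, -0.66 and -0.61 at 3 days, -0.59, -0.53 and -1.14 at 7 days and -0.21, -0.032 and -0.17 at 14 days. Isg15, a ubiquitin-like protein that is attached to other proteins, was called at both times (3 days: 1.48-fold lower, adjusted p = 0.0079, and 7 days: 1.69-fold lower, adjusted p = 0.0014), and its second probe gave -0.67 and -0.91. Xaf1 had log2 ratios of 0.37, 0.069 and -0.45 at 1 day, -0.51, -0.59 and -0.63 at 3 days, -0.39, -0.46 and -1.12 at 7 days and -0.25, 0.15 and -0.049 at 14 days. Xaf1 promotes cell death by binding an inhibitor of apoptosis. Its groups overlap at 7 days, where replicate 1 lies within the 1-day range, and it was called at both times (-0.57 ± 0.16 and -0.66 ± 0.16). Ifit3 had log2 ratios of 0.20, 0.069 and -0.45 at 1 day, -0.31, -0.81 and -0.63 at 3 days, -0.44, -0.46 and -1.0 at 7 days and -0.18, 0.22 and 0.11 at 14 days. Ifit3, a partner of Ifit1, overlapped with the 1-day arrays at both times and was called at both (-0.58 ± 0.15, adjusted p = 0.020, and -0.64 ± 0.15, adjusted p = 0.011). Rsad2 had log2 ratios of -0.33, 0.32 and -0.16 at 1 day, -0.41, 0.017 and 0.14 at 3 days, -0.54, 0.023 and -0.58 at 7 days and -0.33, 0.022 and 0.15 at 14 days. Rsad2, also called viperin, makes a nucleotide that stops viral RNA synthesis, and it lay on both sides of 0 at each time and was not called (-0.36 ± 0.16 at 7 days, adjusted p = 0.11). Bst2, which tethers budding virus, was called at both times (-0.37 and -0.45). Usp18, which removes Isg15 from proteins, was called at 7 days (-0.60) and not at 3 days (-0.53, adjusted p = 0.076). Members of the Ifit and Oas families share sequence, so probes may read relatives in part.

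**Figure D3:**
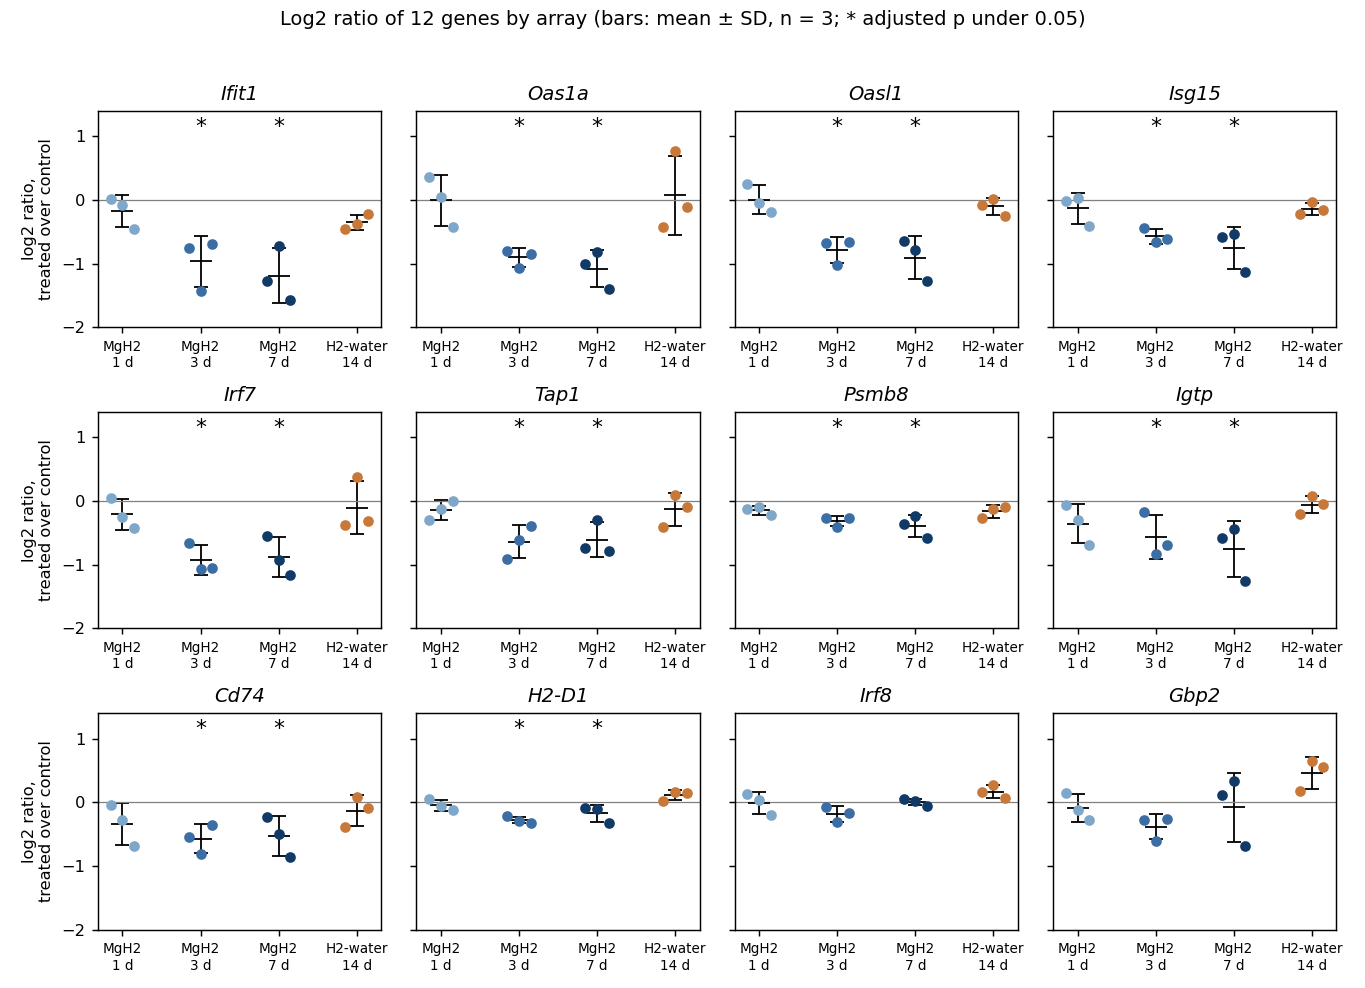
Log2 ratio of 12 genes on each array (points) with the mean and SD of 3 arrays; a star marks a group mean with an adjusted p under 0.05. Ifit1, Oas1a, Oasl1 and Irf7 fell furthest at 3 and 7 days, Psmb8 and H2-D1 by less, and Irf8 and Gbp2 were not called.

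Among the transcription regulators 2 of 6 tested genes were called lower at 3 days and 3 of 6 at 7 days. Irf7 had log2 ratios of 0.053, -0.26 and -0.43 at 1 day, -0.65, -1.07 and -1.04 at 3 days, -0.54, -0.93 and -1.16 at 7 days and -0.38, 0.38 and -0.31 at 14 days. Irf7, the factor that amplifies type I interferon production, was below every 1-day array on all 3- and 7-day arrays, at 1.90-fold lower at 3 days (-0.92 ± 0.16, adjusted p = 0.0040) and 1.84-fold lower at 7 days (-0.88 ± 0.16, adjusted p = 0.0034). Irf9, the DNA-binding part of the complex on the ISRE, was called at both times (-0.46 and -0.48), and its partner Stat2 at 7 days (-0.29, adjusted p = 0.035) but not at 3 days (-0.18, adjusted p = 0.17). Irf8 had log2 ratios of 0.13, 0.035 and -0.20 at 1 day, -0.067, -0.31 and -0.17 at 3 days, 0.050, 0.022 and -0.052 at 7 days and 0.17, 0.27 and 0.060 at 14 days. Irf8, a factor of macrophages and dendritic cells, lay between -0.31 and 0.27 on all arrays and was not called in any group (-0.18 ± 0.066 at 3 days, adjusted p = 0.071). Irf1, an early mediator of interferon gamma, missed the threshold at 3 days (-0.40, adjusted p = 0.097) and at 7 days (-0.43, adjusted p = 0.067). Nlrc5, the activator of MHC class I genes, lay at 0.014 at 3 days and 0.22 at 7 days, neither called.

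Of the MHC class I and peptide loading genes 5 of 6 were called lower at 3 days (median -0.27) and 5 of 6 at 7 days (median -0.20). Tap1 had log2 ratios of -0.30, -0.12 and 0.0044 at 1 day, -0.91, -0.61 and -0.40 at 3 days, -0.73, -0.29 and -0.79 at 7 days and -0.41, 0.10 and -0.090 at 14 days. Tap1, a subunit of the transporter that carries peptides into the endoplasmic reticulum, was 1.56-fold lower at 3 days (-0.64 ± 0.13, adjusted p = 0.0067) and 1.52-fold lower at 7 days (-0.60 ± 0.13, adjusted p = 0.0062). Its 3-day arrays lay below all 1-day arrays, and replicate 2 of 7 days did not. The probe is dim, and normexp background correction moved the values to -0.36 and -0.33, both still called. H2-D1 had log2 ratios of 0.049, -0.059 and -0.12 at 1 day, -0.22, -0.29 and -0.32 at 3 days, -0.085, -0.10 and -0.33 at 7 days and 0.029, 0.17 and 0.14 at 14 days. H2-D1, a class I heavy chain with a small spread, was 1.21-fold lower at 3 days (-0.28 ± 0.054, adjusted p = 0.0066) and 1.13-fold lower at 7 days (-0.17 ± 0.054, adjusted p = 0.037), and above 0 on all 3 arrays at 14 days. H2-K1, the other classical heavy chain, was called at both times (-0.33 and -0.23), as were Tap2 (-0.27 and -0.27) and B2m, the light chain of class I molecules (-0.17 and -0.15). Tapbp, which links the transporter to class I molecules, was called at neither (-0.16 and -0.098). Class I genes are close copies of each other, so the probes of H2-D1 and H2-K1 may read other class I genes in part.

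Of the immunoproteasome genes 3 of 5 were called lower at 3 days (median -0.28) and 5 of 5 at 7 days (median -0.26). At 1 day 0 of 5 were called, with a median of -0.11. In the differences 3 minus 1 and 7 minus 1 days 0 of 5 were called. Psmb8 had log2 ratios of -0.13, -0.085 and -0.22 at 1 day, -0.27, -0.40 and -0.27 at 3 days, -0.36, -0.24 and -0.57 at 7 days and -0.27, -0.13 and -0.085 at 14 days. Psmb8, a catalytic subunit that replaces its constitutive counterpart under interferon, was below all 1-day arrays on all 3- and 7-day arrays, at -0.32 ± 0.062 (adjusted p = 0.0068) and -0.39 ± 0.062 (adjusted p = 0.0016). Psmb9 and Psmb10, the other catalytic subunits, were called at both times, with -0.39 and -0.50 for Psmb9 and -0.28 and -0.26 for Psmb10. At 1 day Psmb9 stood at -0.089 and Psmb10 at -0.18. Psme1 had log2 ratios of -0.10, -0.080 and -0.16 at 1 day, -0.068, -0.13 and -0.20 at 3 days, -0.12, -0.094 and -0.28 at 7 days and 0.012, 0.087 and 0.11 at 14 days. Psme1, a subunit of the activator that opens the proteasome gate, overlapped with 1 day and was called at 7 days (-0.16 ± 0.043, adjusted p = 0.020) but not at 3 days (-0.13 ± 0.043, adjusted p = 0.054). Its partner Psme2 did the same (-0.14 at 7 days, -0.12 at 3 days), and a second Psme2 probe was called at both times and at 1 day (-0.16, adjusted p = 0.046).

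The MHC class II genes varied widely between replicates, and 2 of 3 tested genes were called at 3 days and 2 of 4 at 7 days. Cd74 had log2 ratios of -0.048, -0.28 and -0.69 at 1 day, -0.54, -0.81 and -0.36 at 3 days, -0.24, -0.49 and -0.86 at 7 days and -0.39, 0.083 and -0.085 at 14 days. Cd74, the invariant chain that guides class II molecules, was 1.48-fold lower at 3 days (-0.57 ± 0.15, adjusted p = 0.020) and 1.44-fold lower at 7 days (-0.53 ± 0.15, adjusted p = 0.022), and its arrays overlapped with those of 1 day. H2-Eb1, a class II beta chain, was also called at both times (-0.50 and -0.48). H2-Ab1 had log2 ratios of 0.30, -0.073 and -0.44 at 1 day, -0.32, -0.65 and -0.10 at 3 days, 0.041, -0.31 and -0.73 at 7 days and -0.13, 0.32 and 0.11 at 14 days. H2-Ab1, another beta chain, ran from above to below 0 within the 1-day and 7-day groups and was called at neither 3 days (-0.36 ± 0.17, adjusted p = 0.15) nor 7 days (-0.33 ± 0.17, adjusted p = 0.16). H2-Aa, an alpha chain, was not above background in the treated channel on replicate 2 of 3 days, so it was not tested there, and was not called at 7 days (-0.45, adjusted p = 0.18).

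Of the interferon-inducible GTPases 3 of 5 were called lower at 3 days (median -0.52) and 4 of 5 at 7 days (median -0.60). Igtp had log2 ratios of -0.068, -0.30 and -0.69 at 1 day, -0.17, -0.83 and -0.69 at 3 days, -0.58, -0.43 and -1.25 at 7 days and -0.20, 0.073 and -0.042 at 14 days. Igtp, a regulatory GTPase at the membranes around intracellular parasites, was called at both times (-0.56 ± 0.17, adjusted p = 0.038, and -0.76 ± 0.17, adjusted p = 0.0091), and replicate 3 was its lowest array at 1 and 7 days. Irgm1 had log2 ratios of -0.42, -0.046 and -0.21 at 1 day, -0.60, -0.51 and -0.52 at 3 days, -0.83, -0.31 and -0.70 at 7 days and -0.35, -0.095 and -0.10 at 14 days. Irgm1, its relative that also acts in autophagy, was lower with less spread at 3 days, where all arrays lay below those of 1 day (-0.54 ± 0.097, adjusted p = 0.0043), than at 7 days (-0.61 ± 0.097, adjusted p = 0.0016). Iigp1 had log2 ratios of -0.19, 0.00049 and -0.26 at 1 day, -0.50, -0.46 and -0.58 at 3 days, -0.74, -0.25 and -0.82 at 7 days and -0.28, -0.12 and -0.092 at 14 days. Iigp1, an effector GTPase that coats parasite vacuoles, was called at both times (1.43-fold lower, adjusted p = 0.0051, and 1.52-fold lower, adjusted p = 0.0015). Further probes of Irgm1 and Iigp1 were called at both times too, at -0.51 and -0.50 for Irgm1 and -0.56 and -0.64 for Iigp1. Gbp3, a guanylate-binding protein, was called at 7 days (-0.58, adjusted p = 0.040) and not at 3 days (-0.46, adjusted p = 0.10). Gbp2 had log2 ratios of 0.15, -0.13 and -0.28 at 1 day, -0.27, -0.61 and -0.26 at 3 days, 0.11, 0.34 and -0.69 at 7 days and 0.18, 0.65 and 0.56 at 14 days. Gbp2, another guanylate-binding protein, was above 0 on replicates 1 and 2 of 7 days and on every 14-day array, and was not called in any group (0.47 ± 0.175 at 14 days, adjusted p = 0.13). Its probe is dim.

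To see which channel moved, the level of each gene was taken as its log2 signal minus the median of that channel on the array. The control pools of the MgH2 arrays repeated by replicate number. Over the 35 genes their median level, relative to the mean of the 9 MgH2 controls, was -0.14, 0.024 and 0.094 at 1 day, -0.16, 0.028 and 0.14 at 3 days, and -0.13, 0.028 and 0.11 at 7 days. The treated pools lay at -0.14, -0.046 and -0.18 at 1 day, -0.52, -0.51 and -0.23 at 3 days, and -0.49, -0.29 and -0.63 at 7 days, so the treated channel was lower at 3 and 7 days while the control channel kept the same order. For Tap1 the control level was between -1.69 and -1.80 on all 9 MgH2 arrays, and the treated level was between -1.77 and -2.0 at 1 day and between -2.07 and -2.63 at 3 and 7 days. The labels give a control for each day, and the sources used here do not say whether the same control pools were labelled again. The fit took the arrays as independent, and the replicate number as a block was tried as an alternative.

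The 14-day control pools differed from the MgH2 controls in these genes. Their median level was -0.43, -0.31 and -0.31. Irf7 lay between -1.25 and -1.57 there against -0.21 to -0.77 in the MgH2 controls, and Cd74 between 0.051 and 0.30 against 1.58 to 2.03, while Ifit1 was higher, between -1.65 and -1.96 against -2.42 to -2.86. The 14-day and MgH2 controls differ in agent, route, slide and software at once, which cannot be told apart.

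**Figure D4:**
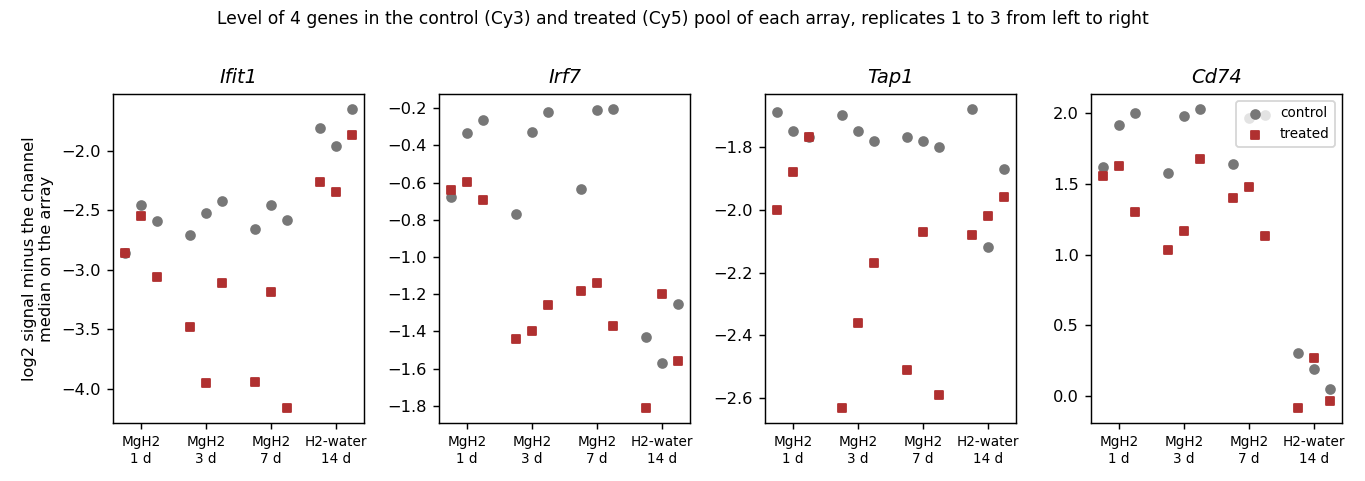
Level (log2 signal minus the channel median of the array) of 4 genes in the control (circles) and treated (squares) pool of each array. At 3 and 7 days the treated pools of Ifit1, Irf7 and Tap1 lie below their controls and below the 1-day treated pools, and the 14-day pools lie below all MgH2 pools for Cd74 in both channels and for Irf7 in the control channel.

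Differences between groups were tested directly, and few passed. From 1 to 7 days of MgH2 2 of 36 genes were called lower, where 3.69% of probes were lower and 3.26% higher, namely Ifit1 at -1.01 ± 0.24 (SE, adjusted p = 0.035) and Oasl1 at -0.91 ± 0.18 (adjusted p = 0.019). With the replicate number as a block 8 were called lower, adding Oas1a (-1.07), Xaf1 (-0.65), Isg15 (-0.62), Ifit3 (-0.58), Iigp1 (-0.46) and Irgm1 (-0.39), which are antiviral genes and GTPases. With that block 5.22% of probes were called lower and 4.41% higher. Of the 36 differences 31 were below 0, with a median of -0.35. No slide holds both groups, and with slide as a fixed term, an alternative added after the data had been seen, none was called and Ifit1 and Oasl1 stood at -0.52 and -0.55. That fit called 0% of probes. Without replicate 1 or 2 of 1 day, or without replicate 3 of 7 days, none was called. In these fits 1.54%, 1.62% and 0.671% of probes were called lower, and 1.18%, 0.998% and 0.359% higher.

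From 1 to 3 days limma called 0 of 35 genes, where 0.0052% of probes were called lower and 0.0156% higher. At an unadjusted p under 0.05 there were 15 of 35, beside 2962 of all 19222 probes. Of the 35 differences 33 were below 0, with a median of -0.30. On the slide that holds both groups, 3 arrays of 1 day and 1 of 3 days, the median difference was -0.20 and 29 of 35 were below 0. Between 3 and 7 days limma called 0 of 35 genes and 0% of probes. At an unadjusted p under 0.05 there was none of the 35 either, beside 904 of all 19100 probes. The median difference was -0.032 over all arrays and 0.13 on the slide that holds 2 arrays of each group, where 4 of 35 were below 0. Psme1, Psme2, Stat2, Oasl2, Usp18 and Gbp3, which passed at 7 days and not at 3 days, were thus not shown to differ between those times.

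**Figure D5:**
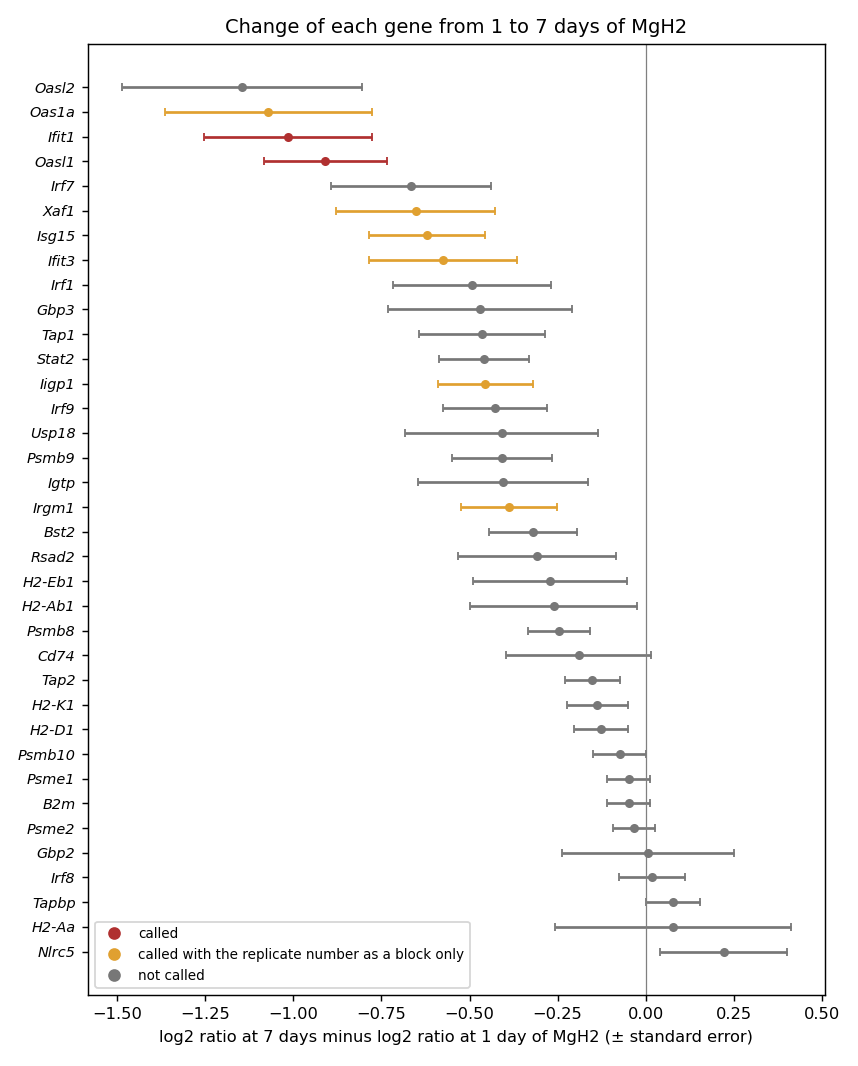
Log2 ratio at 7 days minus that at 1 day of MgH2 for each of the 36 tested genes, with its standard error. Antiviral genes stand furthest below 0, led by Oasl2, Oas1a, Ifit1 and Oasl1, while Gbp2, B2m, Psme1, Psme2, Irf8, Tapbp and H2-Aa stand close to 0. Red marks the genes called, and orange those called with the replicate number as a block only.

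Few differences between MgH2 and 14 days of H2-water passed the test. Of 36 genes 35 were higher at 14 than at 7 days (median 0.43), and 2 were called, Oas1a (1.15 ± 0.29, adjusted p = 0.045) and Oasl1 (0.80 ± 0.17, adjusted p = 0.029), where 3.46% of probes were called higher and 3.15% lower. With the replicate number as a block 3 were called, Oas1a, Oasl1 and Irf9, where 2.68% of probes were called higher and 2.04% lower. Without replicate 3 of 7 days, or without replicate 2 or 3 of 14 days, none was called. In these fits 0.304%, 0.368% and 0.758% of probes were called higher, and 0.245%, 0.293% and 0.509% lower. Against 3 days all 35 differences were above 0 (median 0.40) and 1 was called, H2-D1 (0.39 ± 0.076, adjusted p = 0.035), where 1.23% of probes were called higher and 1.21% lower, and it was not called with the replicate block or without any 1 array of either group. Against 1 day limma called 0 of 36, where 0.0427% of probes were called lower and 0.032% higher, and 25 of 36 differences were above 0. At an unadjusted p under 0.05 there were 2 of 36, beside 2335 of all 18742 probes. Agent, route, duration and slide differ between these groups and cannot be told apart.

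The rest of the pathway was read from a list of 96 further genes, of which 5 had no probe. At 3 days 26 of 75 tested genes were called lower and 4 higher, at 7 days 36 of 73 lower and 3 higher, at 1 day 4 of 77 lower and 3 higher, and at 14 days 2 of 76 lower and 1 higher. Of all probes 11.1% were called lower and 12.3% higher at 3 days, 14.3% and 15.3% at 7 days, 4.24% and 5.15% at 1 day, and 3.91% and 4.92% at 14 days. Either direction together, 18 were called at 3 days without replicate 2, 24 at 7 days without replicate 1 and 18 without replicate 3, and 2 or fewer at 1 day or 14 days without any 1 array. In these 3- and 7-day fits 4.32%, 8.67% and 7.79% of probes were called lower, and 6.14%, 9.01% and 7.97% higher. Of the ligands, receptors and kinases 2 of 9 were called lower at 7 days, Il10rb (-0.49), a shared subunit of the interferon lambda receptor, and the kinase Tyk2 (-0.42), and the type I receptor chain Ifnar1 at 0.019. Of the nucleic acid sensors and adaptors 8 of 14 were called lower at 7 days, among them the RNA sensors Ddx58 (-0.31) and Ifih1 (-0.23) and the factors Irf3 (-0.27) and Irf5 (-0.59). None of the feedback inhibitors was called lower at 7 days, and the phosphatases Ptpn2 (0.22) and Ptpn11 (0.20), which switch off the signal, were called higher. The list otherwise holds only Socs1, Socs3, Pias1 and Trim21. Beside 14.3% of all probes called lower and 15.3% higher, it is too short to read these calls as a result about the inhibitors. The other interferon-stimulated genes were lower in 19 of 30 at 7 days and higher in none, and the other antigen presentation genes lower in 7 of 15, among them H2-DMa (-0.48) and H2-DMb1 (-0.57), which load class II molecules, while the trimming peptidase Erap1 was higher (0.26).

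The 6 further genes named here were taken as those with the largest changes among the ones called. Rtp4 had log2 ratios of 0.11, -0.12 and -0.41 at 1 day, -0.77, -1.03 and -0.88 at 3 days, -0.95, -0.78 and -1.37 at 7 days and -0.43, 0.15 and -0.26 at 14 days. Rtp4, a negative regulator of RNA sensing, was below all 1-day arrays at 3 and 7 days (-0.89 ± 0.14 and -1.03 ± 0.14, adjusted p = 0.0019 and 0.00064). Gbp6 had log2 ratios of -0.25, -0.22 and -0.63 at 1 day, -0.92, -1.19 and -1.09 at 3 days, -0.93, -0.68 and -1.54 at 7 days and -0.18, 0.18 and -0.12 at 14 days. Gbp6, a guanylate-binding protein, was too (-1.07 ± 0.14 and -1.05 ± 0.14, adjusted p = 0.0011 and 0.00079). Ifi27l2a had log2 ratios of 0.67, 0.36 and -0.33 at 1 day, -0.64, -1.10 and -1.09 at 3 days, -1.04, -0.96 and -1.48 at 7 days and -0.53, 1.07 and -0.27 at 14 days. Ifi27l2a, a mitochondrial interferon-stimulated protein, was 1.92-fold lower at 3 days (adjusted p = 0.034) and 2.24-fold lower at 7 days (adjusted p = 0.011). Cxcl9, a chemokine induced by interferon gamma, stood at -0.98 and -0.80 and was already at -0.65 at 1 day, where it was not called (adjusted p = 0.081). Zbp1, a sensor of Z-form nucleic acid, stood at -0.78 and -0.90, both called. Ifi44 was called at 3 days (-0.99, adjusted p = 0.036) and was not above background on all arrays at 7 days.

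Some markers of immune cells were also lower. Of the 10 macrophage and Kupffer cell markers 9 were well above background on all arrays, and 4 of 10 tested at 3 days and 5 of 9 at 7 days were called lower, where 11.1% and 14.3% of all probes were, among them Clec4f (-0.45 at 7 days), Vsig4 (-0.47), Cd5l (-0.47) and C1qa (-0.48). Marco, of the same list, stood at 0.25 at 3 days and 0.30 at 7 days, neither called. The summed signal of the 9, treated over control, lay between -0.30 and -0.021 on the log2 scale at 1 day, between -0.40 and -0.31 at 3 days, between -0.45 and -0.34 at 7 days and between -0.18 and 0.20 at 14 days. The neutrophil markers S100a8 and S100a9 were lower at 7 days (-0.97 and -1.36), and their sum lay between -0.78 and -1.60 there and between -0.099 and -0.76 at 1 day. The leukocyte marker sum, over 5 of 6 listed genes, lay between -0.18 and -0.072 at 1 day, between -0.19 and -0.14 at 3 days and between -0.18 and -0.079 at 7 days. Ptprc (-0.70, and -0.59 already at 1 day, called), Laptm5 (-0.65) and Cd52 (-0.53) were called lower at 7 days, where 14.3% of all probes were. Lcp1 and Coro1a of the same list stood at 0.011 and -0.16 at 7 days, and Cd53 was not above background on any array. Of the T and NK cell markers 4 of 8 were above background on all arrays and none was called lower at 3 or 7 days, while Cd4 was higher (0.28 and 0.20). Its mean was already 0.20 at 1 day. Of the B cell markers 2 were tested, of which Cd79b was called lower at both times (-0.52 and -0.48) and Cd22 at neither. The B cell gene Ms4a1, the dendritic cell genes Xcr1, Clec9a and Cd209a, and the T cell genes Cd3d, Cd3g and Cd8a were not above background on any array. Of the 6 hepatocyte markers Alb (0.41), Ttr (0.22) and Tat (0.26) were higher at 7 days. Apoa1 (0.14), Cps1 (0.24) and Serpina1a (0.091) had means above 0 there but were below 0 on replicate 1. The part of these cell types in the lower interferon genes was not tested.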

How the data were processed

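Liver RNA was hybridised to 12 two-colour Agilent arrays in 4 groups of 3, treated pools in Cy5 and control pools in Cy3, with no dye swap, so a dye effect of a probe stays in the group means and cancels in differences between groups. The deposited scanner files hold the intensity of each spot in both channels, background-subtracted and dye-normalized by the authors with Agilent Feature Extraction (version 10.10.1 per the labels), and a log10 ratio. The deposited value table holds the log2 of the same ratio. Here log2 of Cy5 over Cy3 processed intensity was taken as deposited, control spots were left out, and spots of a probe were averaged.

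Probes that both channels read well above background, on every array of the groups compared, were fitted over all 12 arrays with limma 3.58.1 (R 4.3.3), and group means and differences were tested with Benjamini-Hochberg adjustment over all probes tested, at 0.05. The procedure was tested on simulated data with independent arrays, which does not cover arrays that deviate together by replicate number. The members and gene lists were chosen with earlier results of these data known. Genes given array by array were the 12 with the largest changes among those called and, in each role group, those whose mean ratio over the 4 groups was farthest from and closest to 0, and 6 further pathway genes were named by size among those called. Replicate numbers come from the labels. Same-numbered MgH2 arrays deviated together, with r between 0.368 and 0.655 over 9 pairs of ratios (0.322 to 0.671 in the control channel and -0.296 to 0.176 in the treated channel), so blocked values are given for these, while r with the 14-day arrays was between -0.041 and 0.288. Alternatives were other scalings, normexp (offset 50) with loess, other filters, gene means, only the arrays compared, the methods' t-test, slide and replicate blocks, and leaving out each array.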

Additional observations from a re-analysis of the deposited data

Results flagged for a closer look

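Differences between groups that passed limma's test (Benjamini-Hochberg over all probes) concerned 4 antigen presentation or antiviral genes and 2 further pathway genes. From 1 to 7 days of MgH2 the log2 ratio fell in Ifit1 (-1.015), in Oasl1 (-0.9094) and in Rtp4 (-0.8946, adjusted p = 0.026). From 7 days of MgH2 to 14 days of H2-water it was higher in Oas1a (1.152), in Oasl1 (0.803), in Rtp4 (0.8544, adjusted p = 0.031) and in Gbp6 (1.008, adjusted p = 0.024). From 3 days of MgH2 to 14 days of H2-water it was higher in H2-D1 (0.3893) and in Gbp6 (1.025, adjusted p = 0.036). No slide holds both groups of any of these differences, so slide and treatment cannot be told apart.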

How the results depend on the processing

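The values of named members that limma called at 3 days, 7 days, 7 minus 1 days and 14 minus 7 days were followed through the alternatives. None of these changed direction under any alternative run, while 349 kept their side of the threshold and 103 lost the call. Only called values entered, so a change of direction was unlikely from the start and its absence says little. The calls of Tap2 at 14 days and of H2-D1 for 14 minus 3 days were not followed. Values that were not called were left out of this check. With only the arrays compared in the fit, members called were 7 at 3 days, 9 at 7 days and 0 at 14 days, and 0 in each of the differences 7 minus 1, 14 minus 3 and 14 minus 7 days, and further pathway genes 0, 5, 14 and 0 at 1, 3, 7 and 14 days. That fit called 0.0102%, 0.551%, 5.17% and 0.632% of all probes lower at 1, 3, 7 and 14 days. It called 0.503%, 0.952%, 6.02% and 1.83% higher. The methods' t-test called 7 members at 1 day and 7 at 14 days before adjustment and 1 at 3 days, 0 at 7 days and 0 at 14 days after it, and 11 and 16 further genes at 1 and 14 days before and 0 in all 4 groups after it. Leaving out 1 array gave 10 to 17 members at 3 days, 10 to 24 at 7 days, 0 at 14 days, 0 to 4 for 7 minus 1 days, 0 for 14 minus 3 days and 0 to 4 for 14 minus 7 days, and 0 to 2, 18 to 21, 18 to 34 and 0 to 2 further genes at 1, 3, 7 and 14 days. Of all probes, 4.32% to 6.87% were then called lower and 6.14% to 8.16% higher at 3 days. At 7 days the shares were 7.79% to 9.45% lower and 7.97% to 10.7% higher. With the replicate block 8 members were called for 7 minus 1 days and 0 for 14 minus 3 days. With slide as a random block the counts were 2 at 1 day, 7 for 7 minus 1 days, 3 for 14 minus 3 days and 12 for 14 minus 7 days, and 11 and 7 further genes at 1 and 14 days. With that block 6.54% of probes were called lower and 6.5% higher for 7 minus 1 days. For 14 minus 7 days the shares were 5.53% and 5.87%. Slide as a fixed term, chosen after seeing the data, gave 0 for 7 minus 1 days. Scaling by channel totals gave 2 members at 1 day and 5 further genes at 14 days. Normexp with loess gave 1 member at 1 day, 10 for 14 minus 7 days, and 3 and 7 further genes at 1 and 14 days. Without a filter on dim probes the counts were 1 at 1 day, 0 for 7 minus 1 days, 0 for 14 minus 3 days, 6 for 14 minus 7 days and 0 further genes at 1 day. For 14 minus 7 days median centring gave 5, probes above background in at least 1 channel 1, and gene means 6. For that difference normexp with loess called 4.1% of probes higher and 2.71% lower. Without the filter 2.56% were called higher and 14.3% lower. The cause of these changes was not tested. Dim probes limit Gbp2, Oasl2, Ifit1, Tap1 and Ifit2.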
